A study of Mus musculus with 9 samples.

Results

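Killer lymphocytes, above all natural killer (NK) cells and cytotoxic T cells, carry granules filled with perforin and granzymes. Perforin opens pores in the membrane of a target cell, and the granzymes, which are serine proteases, enter and start its death. NK cells are further known by activating receptors such as NKp46, by a need for interleukin-15 (IL-15) and by T-box transcription factors, and classical Ly6C-bearing monocytes are not usually counted among the cells that carry this program. Here 10 genes of the program were followed in monocytes sorted from blood and brain in a mouse model of neuromyelitis optica (NMO), an autoimmune disease in which antibodies against the water channel aquaporin-4 injure astrocytes. The genes were Gzma, Gzmb and Prf1 (granule enzymes and perforin), Nkg7 and Sytl3 (granule membrane and granule transport), Ncr1, Il2rb and Txk (receptor, cytokine receptor subunit and kinase), Eomes (transcription factor) and Ccl5 (chemokine). They were taken by symbol from 23238 gene symbols, and all 10 were in every library, each as a single entry.

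The 10 genes were chosen by their measured levels in these same libraries, where they were high in blood monocytes and low in brain monocytes. Their difference between brain and blood is therefore a description. The calls of the fit over all genes are given beside the share of all genes called, restate that choice, and support nothing. The comparison between the blood groups was tested, although the NMO_Bl_mono libraries also entered that choice.

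The libraries were QuantSeq 3ʹ RNA-seq libraries, which read the 3ʹ end of each transcript, from cells sorted as CD45+CD11b+P2ry12-Ly6C+Ly6G-. Each of 3 groups had 3 libraries, and each library was a pool of 5 female wild-type C57BL/6N mice, 12 weeks old, on day 1. Nor_Bl_mono came from the blood of untreated normal mice. NMO_Bl_mono and NMO_Br_mono came from the blood and the brain of mice given 1 injection of NMO-IgG from patients with human complement into the striatum of 1 hemisphere. The normal mice had no injection, so NMO-IgG, complement and surgery cannot be told apart in the comparison of the blood groups. Monocytes from normal brain or after control IgG were not analysed here. Blood cells were isolated on a density gradient, and brain cells by enzyme digestion and a Percoll gradient, so tissue and preparation cannot be told apart either.

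The libraries held 7582571 to 10416076 counts, and 3 counts in a library, taken as the floor, corresponded to 0.271 to 0.429 CPM, the count of a gene scaled to the total of its library. Values are CPM after TMM scaling, a correction for the make-up of each library, and are given in the order of replicates 1, 2 and 3. Since reads come from the 3ʹ end of each transcript but mapping differs between genes, levels were compared between libraries and not between genes. Of the 9 libraries, 2 stood apart. NMO_Bl_mono replicate 3 had 4567 genes with a count, against up to 11556 in the others, and 22.2% of the genes at 50 CPM or more in both other libraries of its group had 3 counts or fewer there. NMO_Br_mono replicate 2 had 6473 genes with a count and a share of 8.28%, and the other 7 libraries had at most 1.94%. All 7 monocyte markers had counts in each group, and their summed level was 2273 to 4519 CPM in blood libraries and 2624 to 5264 CPM in brain libraries. Among the genes of the sorting antigens, Ly6c2 was at 460 to 928 CPM in blood and 59.1 to 435 CPM in the brain, and P2ry12 was at 0 to 43.2 CPM and 9.89 to 69.3 CPM.

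Promoters of 4 of the genes are shown, since these genes cover the range of brain levels described next. Nkg7 had reads in every brain library, and Gzma had reads that varied widely. Gzmb was at or near 0, and Ncr1 overlapped with blood. Each sequence is the 250 bases before the transcription start site, from RefSeq on GRCm38.p6 (the mm10 build), written 5ʹ to 3ʹ along the gene, and capitals mark matches to a T-box (GGTGTGA), RUNX (TGTGGTT) or ETS (AGGAAGT) motif on either strand. Factors of these families are known to act in NK cells.
Nkg7, chr7:43436888-43437137, plus strand: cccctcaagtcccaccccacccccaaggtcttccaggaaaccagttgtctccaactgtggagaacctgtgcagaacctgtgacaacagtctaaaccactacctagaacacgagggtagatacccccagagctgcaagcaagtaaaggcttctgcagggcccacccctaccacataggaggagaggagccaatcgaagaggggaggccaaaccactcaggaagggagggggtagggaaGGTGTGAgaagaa
Gzma, chr13:113100982-113101231, minus strand: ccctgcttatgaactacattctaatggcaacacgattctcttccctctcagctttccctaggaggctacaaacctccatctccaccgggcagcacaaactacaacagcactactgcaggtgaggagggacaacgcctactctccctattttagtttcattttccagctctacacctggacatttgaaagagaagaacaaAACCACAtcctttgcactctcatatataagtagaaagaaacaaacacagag
Gzmb, chr14:56262335-56262584, minus strand: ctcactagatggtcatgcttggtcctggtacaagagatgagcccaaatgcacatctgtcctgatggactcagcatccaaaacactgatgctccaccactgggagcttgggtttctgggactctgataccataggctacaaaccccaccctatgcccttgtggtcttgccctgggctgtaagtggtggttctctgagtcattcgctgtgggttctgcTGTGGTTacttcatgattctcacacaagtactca
Ncr1, chr7:4337465-4337714, plus strand: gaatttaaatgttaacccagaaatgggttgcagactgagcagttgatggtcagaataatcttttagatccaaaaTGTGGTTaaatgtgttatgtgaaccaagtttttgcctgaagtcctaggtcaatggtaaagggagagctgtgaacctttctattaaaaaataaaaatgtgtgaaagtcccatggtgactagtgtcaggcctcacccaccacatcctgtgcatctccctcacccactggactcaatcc
A promoter entry was found for 8 of the 10 genes (not Il2rb or Ccl5), in 10 windows of 300 bases that run 50 bases past the start site. The T-box letters were in the window of 1 of the 8 genes, Nkg7, starting 13 bases before the start site, and in 3.98% of 32851 windows of all genes. The RUNX letters were in windows of 4 of the 8 genes, Gzma (51 bases before the start site), Gzmb (34 bases), Ncr1 (176 bases) and Txk (21 bases), and in 5.27% of all windows. The ETS letters were in windows of 2 genes, Prf1 (198 and 109 bases before the start site) and Txk (154 bases, in the window of another start site), and in 9.35% of all windows. No matches overlapped. These matches describe letters and not bound sites, and no binding was measured.

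The 10 genes together made up 4769, 3644 and 4222 CPM in the Nor_Bl_mono libraries and 4220, 4510 and 5022 CPM in the NMO_Bl_mono libraries. In NMO_Br_mono they made up 42.3, 418 and 291 CPM. The mean was 4212 ± 563 CPM (SD, n = 3) in Nor_Bl_mono, 4584 ± 406 CPM in NMO_Bl_mono and 250.5 ± 191 CPM in NMO_Br_mono, or 5.46% of NMO_Bl_mono and 5.95% of Nor_Bl_mono. The summed level did not overlap between blood and brain, and among brain libraries replicate 1 was far below the others. The number of the 10 genes with more than 3 counts was 10 in each blood library except NMO_Bl_mono replicate 3, which had 8, and it was 3, 6 and 8 in the brain libraries. In such bulk libraries, fewer cells that express a gene and less RNA per cell cannot be told apart.

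**Figure D1:**
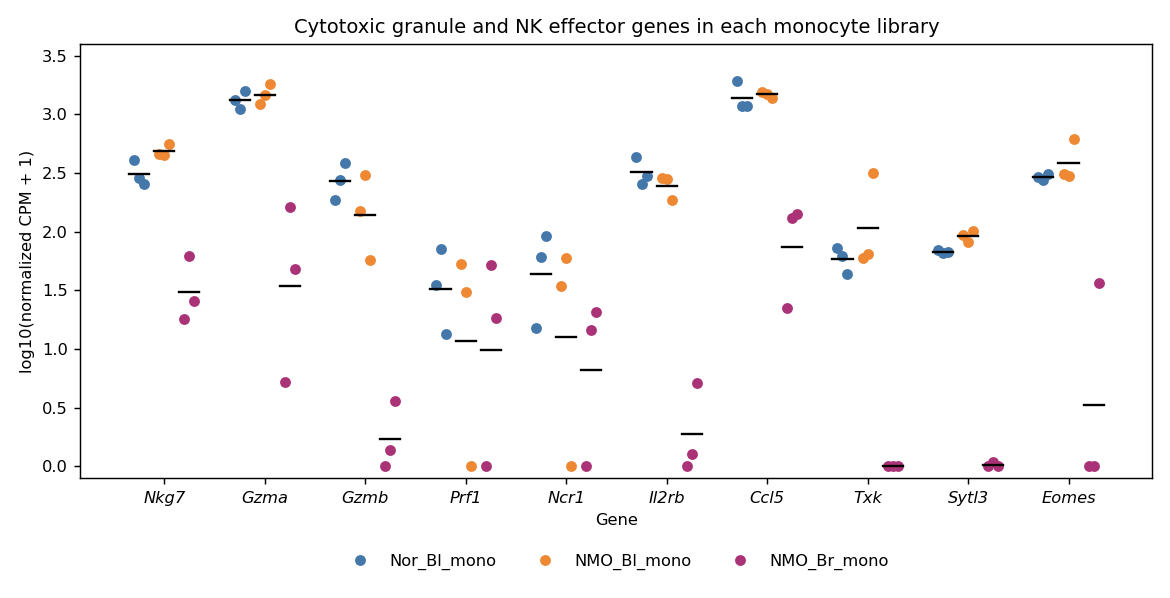
Level of each of the 10 genes, as log10 of normalized CPM + 1, in each library of Nor_Bl_mono, NMO_Bl_mono and NMO_Br_mono; points are libraries and black lines are means of the 3 plotted values. Brain points lie below all blood points for 8 of the 10 genes, and overlap with blood points for Prf1 and Ncr1.

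Against NMO_Bl_mono, the brain libraries were lower for 8 of the 10 genes with no overlap, where 6.05% of the 10107 genes tested had every brain library below every NMO_Bl_mono library. In the fit of all genes with edgeR, which holds the same gap that chose these genes, 6 of the 10 fell under an adjusted p of 0.05 on the lower side (Nkg7, Gzmb, Il2rb, Ccl5, Txk and Sytl3), beside 0.228% of all genes. Against Nor_Bl_mono, the same 8 genes did not overlap, beside 9.37% of all genes, and the same 6 were on the list of lower genes, beside 0.218%. These counts of calls depended on the fit: 0 and 1 of the 10 were called when only the groups compared were fitted, and 4 and 2 without Nor_Bl_mono replicate 3. The shares of all genes called in those settings were not computed, so a change in calls over all genes cannot be told from a change in these genes. All these counts follow from how the genes were chosen, and both comparisons use the same 3 brain libraries. The median log2 fold change of the 10 genes was -4.74 against NMO_Bl_mono and -4.42 against Nor_Bl_mono, where the medians of all genes tested were 0.05 and -0.12. All 10 genes passed the filter on low counts, which 3 libraries of 1 group suffice to meet.

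Granzyme A and granzyme B are the main granule proteases of mouse killer cells. Gzma (chr13:113093824-113100981) was at 1331, 1117 and 1593 CPM in Nor_Bl_mono, 1226, 1447 and 1801 CPM in NMO_Bl_mono and 4.27, 162 and 47.2 CPM in NMO_Br_mono. Brain replicate 1 held 38 Gzma counts and replicate 2 held 1718, so the brain libraries spread over a wide range while all stayed below blood. The brain mean was 20.9-fold lower than NMO_Bl_mono and 18.9-fold lower than Nor_Bl_mono, with log2 fold changes of -4.39 ± 0.86 (SE) and -4.24 ± 0.85. Gzmb (chr14:56258836-56262334) was at 184, 276 and 384 CPM in Nor_Bl_mono, 150, 305 and 56.8 CPM in NMO_Bl_mono and 0, 0.38 and 2.57 CPM in NMO_Br_mono. The brain libraries held 0, 4 and 26 Gzmb counts, and the brain mean was 173-fold lower than NMO_Bl_mono and 286-fold lower than Nor_Bl_mono. Thus both granzymes were high in all 6 blood libraries, while in the brain reads remained for Gzma in every library and for Gzmb over the floor in 2. The other 8 granzyme genes listed (Gzmc, Gzmd, Gzme, Gzmf, Gzmg, Gzmk, Gzmm and Gzmn) were all but absent. Of these, 6 had no count in any library, and Gzmm at 5.44 CPM and Gzmn at 2.43 CPM had counts in Nor_Bl_mono replicate 1 alone. Granzyme genes are alike in sequence and reads with multiple alignments were counted, so reads of Gzmb and its neighbours could be shared.

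For perforin, the pore former, blood and brain overlapped. Prf1 (chr10:61297751-61304684) was at 34.0, 69.5 and 12.5 CPM in Nor_Bl_mono, 52.2, 29.9 and 0 CPM in NMO_Bl_mono and 0, 50.5 and 17.4 CPM in NMO_Br_mono. The 3 groups overlapped, since brain replicate 2 (534 counts) and replicate 3 (176 counts) lay within the range of blood. The brain mean was 1.21-fold lower than NMO_Bl_mono and 1.71-fold lower than Nor_Bl_mono, with log2 fold changes of -0.27 ± 2.20 and -0.77 ± 2.21. The zeros, in NMO_Bl_mono replicate 3 and brain replicate 1, were in libraries whose floors were 0.271 and 0.337 CPM. Leaving out NMO_Bl_mono replicate 3 and NMO_Br_mono replicate 2, the libraries that stood apart, which was decided after the data were seen, gave 10 of 10 genes with every brain library below every NMO_Bl_mono library and 8 of 10 against Nor_Bl_mono. With fewer libraries any gene separates more easily, and the share of all genes in that setting was not computed, so these counts say nothing about Prf1 or other single genes.

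Nkg7 and Sytl3 belong to the granule itself. Nkg7, a membrane protein of cytotoxic granules (chr7:43437138-43438246), was at 411, 286 and 255 CPM in Nor_Bl_mono, 458, 452 and 556 CPM in NMO_Bl_mono and 16.9, 61.1 and 24.5 CPM in NMO_Br_mono. It had 150 counts or more in every brain library, and its brain mean was 14.3-fold lower than NMO_Bl_mono and 9.29-fold lower than Nor_Bl_mono. Sytl3, a Rab27-binding protein of vesicle transport (chr17:6658133-6738070), was at 68.7, 64.2 and 66.7 CPM in Nor_Bl_mono and 93.2, 80.5 and 100.3 CPM in NMO_Bl_mono. Only 1 Sytl3 count was found in all 3 brain libraries, in replicate 2. With the 3 brain libraries pooled, the ratio of NMO_Bl_mono to that count was 2701, with an exact Poisson 95% interval of 485 to 106692 that covers counting error only. Sytl3 was the most even of the 10 genes in normal blood, with a coefficient of variation of 3.34%, and had next to no reads in the brain.

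The receptor and signalling genes ranged from overlap with blood to no reads in the brain. Ncr1, which encodes the activating receptor NKp46 (chr7:4337715-4345184), was at 14.0, 59.3 and 91.2 CPM in Nor_Bl_mono, 33.6, 58.4 and 0 CPM in NMO_Bl_mono and 0, 13.4 and 19.5 CPM in NMO_Br_mono. As for Prf1, the zeros were in NMO_Bl_mono replicate 3 and brain replicate 1, and brain and blood overlapped. Against NMO_Bl_mono the overlap came only from the 0 in replicate 3, since all brain values were below replicates 1 and 2. The brain mean was 2.79-fold lower than NMO_Bl_mono and 5.00-fold lower than Nor_Bl_mono, with log2 fold changes of -1.48 ± 2.16 and -2.32 ± 2.22. Il2rb, the beta chain shared by the receptors of IL-2 and IL-15 (chr15:78479256-78511621), was at 434, 252 and 300 CPM in Nor_Bl_mono, 286, 279 and 184 CPM in NMO_Bl_mono and 0, 0.28 and 4.16 CPM in NMO_Br_mono. The brain libraries held 0, 3 and 42 counts of it, and the brain mean was 169-fold lower than NMO_Bl_mono and 222-fold lower than Nor_Bl_mono. Txk, a kinase of the Tec family (chr5:72695978-72752992), was at 71.8, 61.3 and 42.3 CPM in Nor_Bl_mono and 59.1, 63.1 and 316 CPM in NMO_Bl_mono. No brain library had a Txk count, so against a floor of 3 counts per library the brain was at least 477-fold lower than NMO_Bl_mono and at least 191-fold lower than Nor_Bl_mono. The first of these bounds rests on NMO_Bl_mono replicate 3, whose 3493 Txk counts stood far above every other library, and it was at least 200-fold without it.

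Eomes, a T-box factor of NK cells and memory T cells (chr9:118478186-118486132), was even in Nor_Bl_mono, at 293, 274 and 307 CPM, and at 311, 295 and 618 CPM in NMO_Bl_mono, where replicate 3 stood above all other libraries. In the brain it was at 0, 0 and 35.8 CPM. All 362 brain counts were in replicate 3, so the brain mean, 34.2-fold lower than NMO_Bl_mono and 24.4-fold lower than Nor_Bl_mono, rests on 1 library. Without that library the fitted log2 fold change against NMO_Bl_mono went from -5.09 to -14.86, a value set by the absence of counts. Ccl5, a chemokine of activated T and NK cells that also comes from other cells (chr11:83525778-83530518), was at 1928, 1184 and 1171 CPM in Nor_Bl_mono, 1552, 1500 and 1389 CPM in NMO_Bl_mono and 21.1, 129 and 140.3 CPM in NMO_Br_mono. It had 188, 1368 and 1418 counts in the brain libraries. The brain mean was 15.3-fold lower than NMO_Bl_mono and 14.7-fold lower than Nor_Bl_mono.

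The share of each gene among the counts of the 10 genes was set side by side in blood and brain, with no test. In the blood libraries Ccl5 was 27.7 to 40.4% and Gzma 27.9 to 37.7% of the counts of the 10 genes. Nkg7 was 6.03 to 11.1% of these counts in blood, and 39.9, 14.6 and 8.42% in the brain libraries. Prf1 was 0 to 1.91% in blood, and 0, 12.1 and 5.97% in the brain. Ncr1 was 0 to 2.16% in blood, and 0, 3.22 and 6.69% in the brain. By contrast, Gzmb was 1.13 to 9.09% in blood and 0, 0.091 and 0.883% in the brain, and Il2rb was 3.67 to 9.10% in blood and 0, 0.068 and 1.43% in the brain. Brain replicate 1 had 376 counts of the 10 genes in all, so its shares are the least precise.

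**Figure D2:**
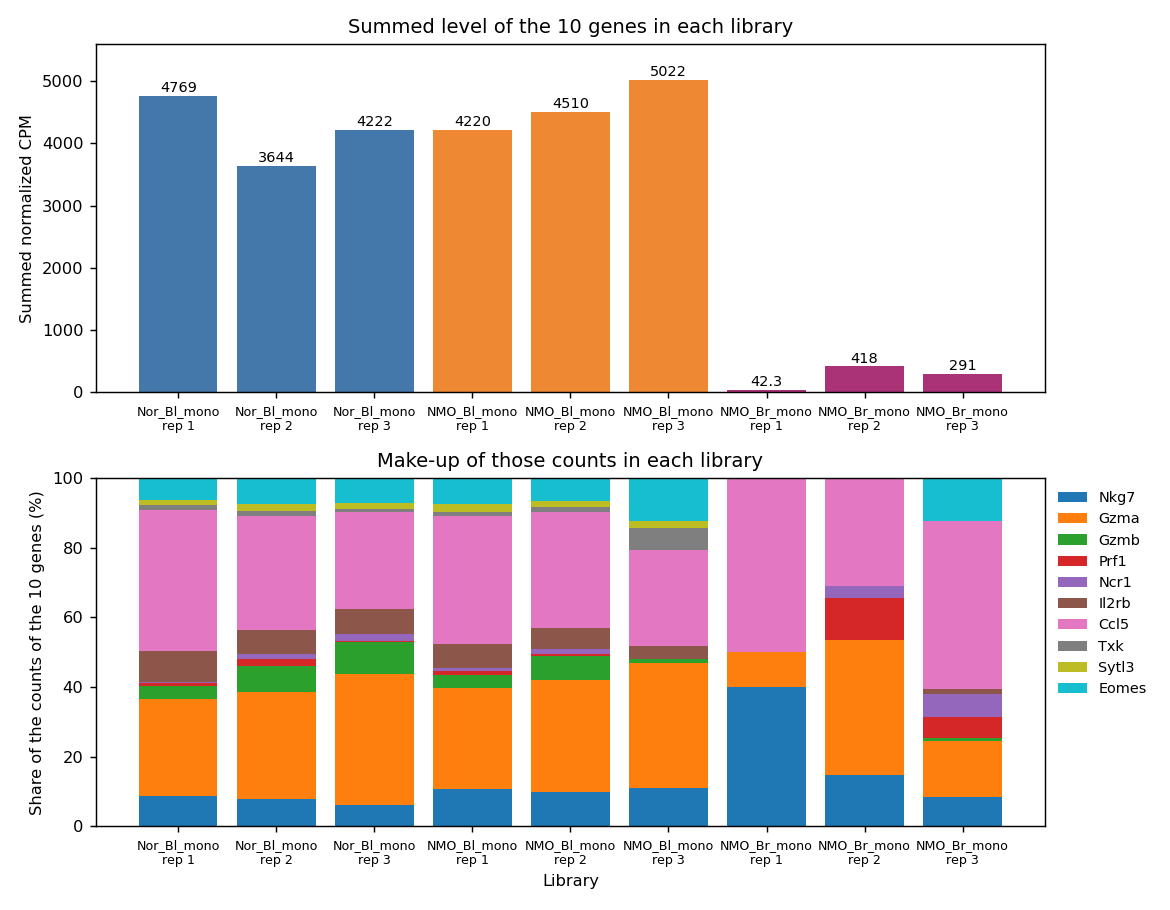
Upper bars: summed normalized CPM of the 10 genes in each library, on an axis that starts at 0. Lower bars: the share of each gene in the counts of the 10 genes in that library, in percent. The brain libraries have low sums, from 42.3 to 418 CPM, with Nkg7 at 39.9% of the counts in replicate 1 and Prf1 at 12.1% in replicate 2.

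The question of the blood comparison was whether circulating monocytes of NMO mice differed from those of normal mice 1 day after the injection. None of the 10 genes was called when edgeR was fitted over the 10107 genes tested. Of the 10, 0 had an unadjusted p under 0.05, and DESeq2 called 0. For all genes these shares were 0% called and 0.712% at an unadjusted p under 0.05, or 72 genes, and DESeq2 called 72. The smallest unadjusted p among the 10 was 0.233, for Txk, with an adjusted p of 1. Of the 10 genes, 6 had a fitted log2 fold change above 0 and 4 below, with a median of 0.10, where the median of all genes tested was -0.16. Standard errors ran from 0.51 to 2.21, so differences of the size of these errors were not detectable with these libraries.

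**Figure D3:**
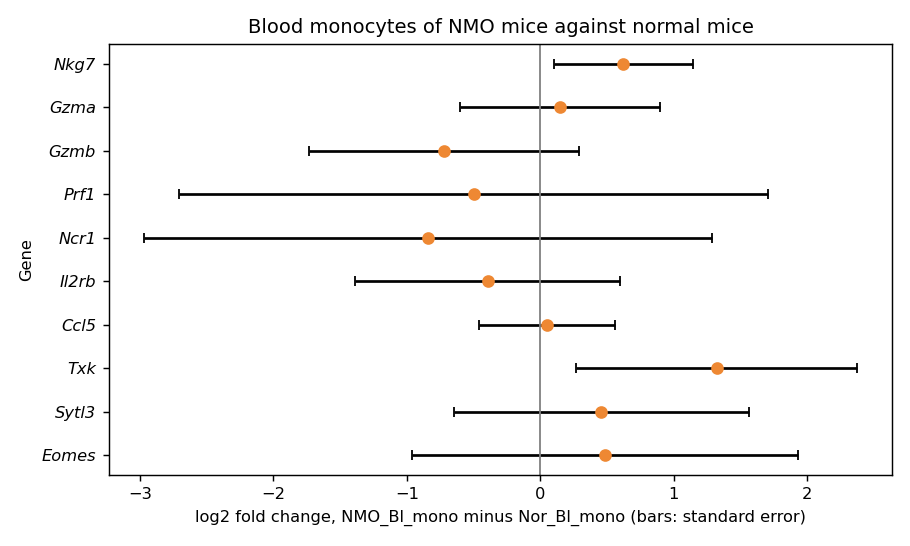
Fitted log2 fold change of NMO_Bl_mono minus Nor_Bl_mono for each of the 10 genes; points are estimates from edgeR and bars are standard errors. Estimates lie from -0.84 (Ncr1) to 1.32 (Txk), with none called.

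Nkg7 and Sytl3 were the members with no overlap between the blood groups, which held for 6.8% of all genes tested. For Nkg7 all NMO_Bl_mono libraries (452 to 556 CPM) lay above all Nor_Bl_mono libraries (255 to 411 CPM), with a log2 fold change of 0.62 ± 0.52. For Sytl3 the ranges were 80.5 to 100.3 CPM and 64.2 to 68.7 CPM, with 0.46 ± 1.11. The count of 2 was the same with other scaling factors and with library sizes alone, and it was 4 without Nor_Bl_mono replicate 1 or without NMO_Bl_mono replicate 2. With a library left out any gene separates more easily, and the share of all genes in those settings was not computed. The remaining genes overlapped, with log2 fold changes of 0.15 ± 0.75 for Gzma, 0.05 ± 0.51 for Ccl5, 0.49 ± 1.45 for Eomes, -0.39 ± 0.99 for Il2rb, -0.72 ± 1.01 for Gzmb, -0.50 ± 2.21 for Prf1 and -0.84 ± 2.13 for Ncr1. Txk had 1.32 ± 1.05, which went to 0.07 without NMO_Bl_mono replicate 3, and Eomes went to 0.06. Without the same library, Gzmb went to -0.30 and Ncr1 to -0.25, while Gzma went to -0.01 and Prf1 to 0.09.

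Within blood the 10 genes did not rise and fall as a block. Over all 9 libraries the 45 pairs of genes had a median Pearson's r of 0.89 on log2(CPM + 1), from 0.05 to 0.98, and the gap between blood and brain that chose the genes is part of each of these values. Over the 6 blood libraries alone the median was -0.09, from -0.97 to 0.95, with 21 pairs positive and 24 negative. The points share library depth and the library that stood apart, and genes are not independent replicates. In that library, NMO_Bl_mono replicate 3, Prf1 and Ncr1 were at 0 while Txk and Eomes had their highest values. The values of r without it were not computed.

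The genes whose pattern over the 9 libraries was most like the mean of the 10 were found among 7425 other genes tested with a mean of at least 10 CPM over the 9 libraries. The closest was Klrb1c, the gene of the NK1.1 antigen, with r = 0.97 over 9 libraries and 0.74 over the 6 blood libraries. It was at 156, 74.2 and 95.2 CPM in Nor_Bl_mono, 124, 175 and 54.6 CPM in NMO_Bl_mono and 0, 0.095 and 5.34 CPM in NMO_Br_mono. Next came Zc3hav1, an antiviral zinc finger protein, with r = 0.965 (0.84 over blood), followed by Klra7, Klra8, Proser1, Klra21, Prpf18, Mllt3, Pik3r1 and Zbtb44, with r of 0.94 to 0.96. Over the 6 blood libraries alone r was negative for 7 of these 8, from -0.38 for Klra21 to -0.11 for Pik3r1, and 0.26 for Zbtb44, and the gap between blood and brain is part of each value over 9 libraries. The Klra genes encode Ly49 receptors of NK cells and are near-identical to each other, so reads could be split or shared among them. With a pseudocount of 0.1 in place of 1, 8 of these 10 genes stayed among the 10 closest.

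Other genes of the same machinery were read from 8 lists that held 99 symbols, of which 79 were tested. In NMO_Bl_mono against Nor_Bl_mono none of the 79 was called by edgeR, none had an unadjusted p under 0.05, and DESeq2 called 0. Against the blood, the brain libraries had 1 gene called lower compared with NMO_Bl_mono, Klrg1, and 2 compared with Nor_Bl_mono, Klrg1 and Il18rap. The shares of all genes tested that were called lower were 0.228% and 0.218%. None was called higher by edgeR, where 0.0198% of all genes tested were called higher against NMO_Bl_mono and 0.0297% against Nor_Bl_mono. At an unadjusted p under 0.05 there were 24 of 79 lower and 2 higher in each comparison, where the shares of all genes were 3.84% lower and 1.48% higher against NMO_Bl_mono, and 4.07% and 1.75% against Nor_Bl_mono. DESeq2 called 16 lower and 0 higher in each, where the shares of all genes were 2.54% lower and 0.762% higher against NMO_Bl_mono, and 2.43% and 1.2% against Nor_Bl_mono. These lists were chosen with results of these libraries known, so the counts describe them. The median log2 fold change of the 79 genes was -1.46 against NMO_Bl_mono.

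NK receptors and their adaptors let a killer cell sense its target. Of 20 genes tested, 18 had a fitted value below 0 against NMO_Bl_mono, and the median log2 fold change was -5.05. Every brain library was below every NMO_Bl_mono library for 9 of the 20, beside 6.05% of all genes tested. Klrg1, an inhibitory lectin-like receptor, was at 20.0, 72.0 and 177 CPM in Nor_Bl_mono and 77.2, 96.8 and 47.2 CPM in NMO_Bl_mono. It had no count in the brain, which makes it at least 241-fold lower than NMO_Bl_mono. The adaptors Fcer1g (739 to 1425 CPM in the brain) and Tyrobp (389 to 887 CPM), which myeloid cells also use, overlapped with blood. Klrd1, the CD94 partner of NKG2 receptors, kept 27.1, 56.7 and 30.5 CPM in the brain, where NMO_Bl_mono had 150, 110 and 112 CPM.

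Among granule contents, the cathepsin Ctsw, found in NK and cytotoxic T cells, was at 212, 89.5 and 231 CPM in NMO_Bl_mono and 12.3, 0 and 0 CPM in the brain. Srgn, the serglycin core of granules in many blood cells, was at 1083, 1375 and 841 CPM in NMO_Bl_mono and 1740.4, 2572 and 1802 CPM in the brain, above all blood libraries. Ctsc, the protease that activates granzymes and is present in myeloid cells, had 626, 453 and 306 CPM in the brain and 234, 346 and 0.09 CPM in NMO_Bl_mono. The 9 genes of this list had a median log2 fold change of -2.18 against NMO_Bl_mono. The 9 genes of granule release tested had a median of 0.02, close to that of all genes, but were split, with 5 fitted values above 0 and 4 below. Stxbp2 and Vamp8 overlapped with blood. Rab27a was at 59.7, 54.8 and 141 CPM in NMO_Bl_mono and 47.7, 0.66 and 0.59 CPM in the brain. Sytl1 and Sytl2 had no count in the brain, and none in NMO_Bl_mono replicate 3 either.

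In cytokine receptor signalling, 12 genes were tested, with a median of -1.37 against NMO_Bl_mono. Il2rg, the common gamma chain that pairs with Il2rb, was at 194, 236 and 562 CPM in NMO_Bl_mono and 128, 273 and 216 CPM in the brain, so unlike Il2rb it overlapped. Il18rap, a subunit of the IL-18 receptor, was at 163, 229 and 216 CPM in Nor_Bl_mono and 1.69, 0 and 0 CPM in the brain, and was called lower in that comparison by edgeR. Of 10 transcription factors, 6 had every brain library below every NMO_Bl_mono library, beside 6.05% of all genes tested, and the median was -2.14. Tbx21, the T-box relative of Eomes, was at 73.5, 19.4 and 13.9 CPM in NMO_Bl_mono and 11.7, 0 and 0 CPM in the brain. Runx3, at 283, 236 and 223 CPM in NMO_Bl_mono and 243, 363 and 307 CPM in the brain, overlapped, and so did Nfil3. Of the Tec kinase relatives of Txk, Tec itself had 23.6, 38.7 and 41.6 CPM in the brain and 10.3, 4.87 and 0 CPM in NMO_Bl_mono. The 12 genes of that list had a median of -0.61.

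Chemokines and homing receptors, the list closest to Ccl5, were mixed. The 7 tested had a median of 0.26 against NMO_Bl_mono. The chemokines Ccl3 and Ccl4 overlapped, with 102, 395 and 166 CPM and 151, 282 and 58.8 CPM in the brain. S1pr5, an exit receptor of NK cells and of some monocytes, was at 63.5, 21.6 and 128 CPM in NMO_Bl_mono and 6.19, 0 and 0 CPM in the brain.

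**Figure D4:**
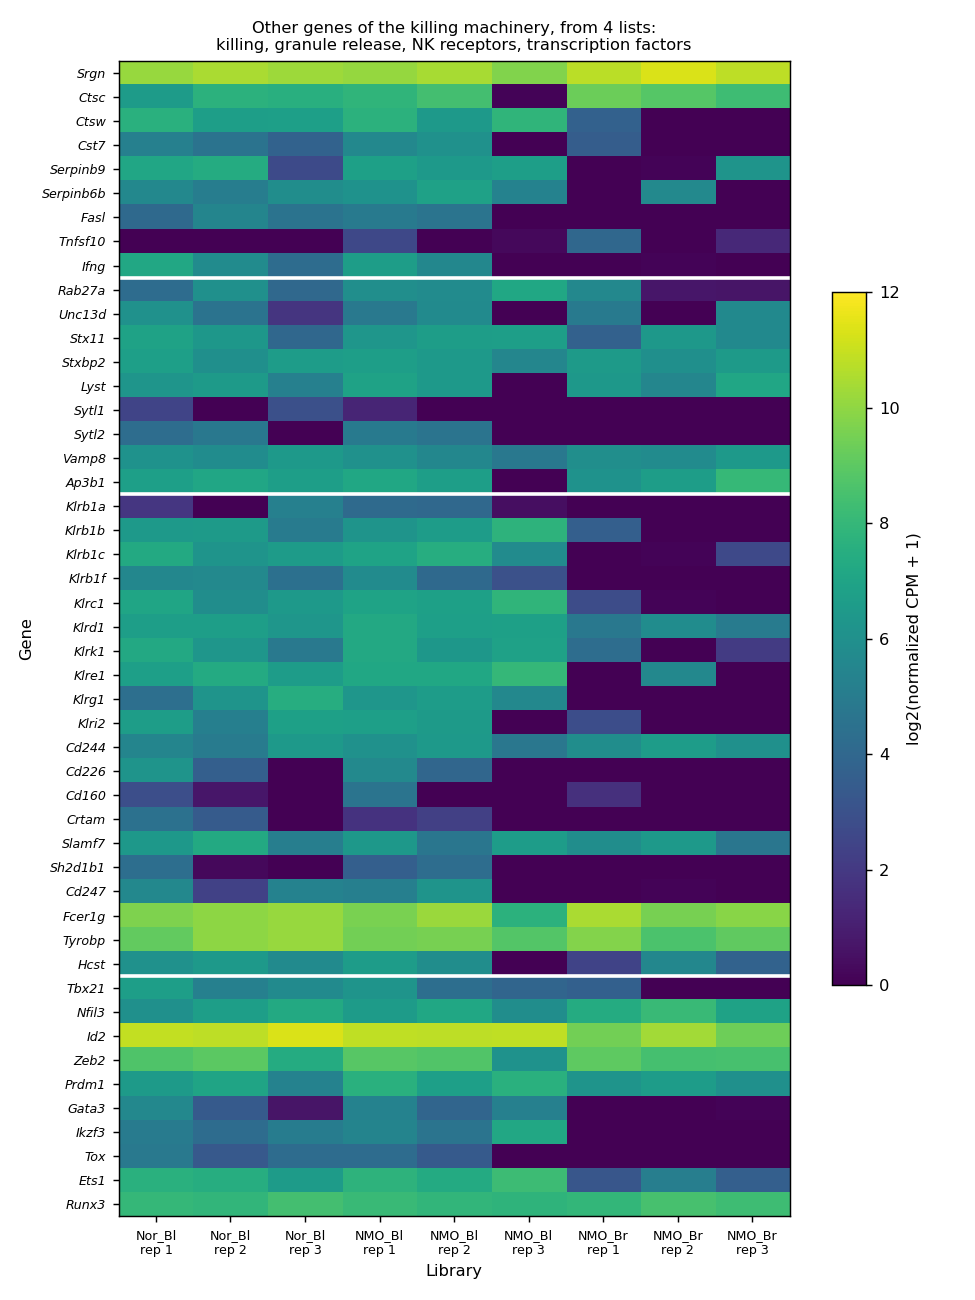
Levels of the tested genes of 4 lists (other granule contents and killing genes, granule release, NK receptors and adaptors, transcription factors) in the 9 libraries, as log2 of normalized CPM + 1; white lines part the lists. Brain columns are at or near 0 for many NK receptors, such as Klrg1 and Klrb1c, while Srgn, Fcer1g, Tyrobp and Runx3 have high values in all libraries.

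Summed markers of most other cell types listed also differed between blood and brain, while those of B cells overlapped. Of 14 T cell markers, 11 were in the count tables, and their summed level was 31.8 to 104 CPM in blood libraries and 0.095 to 11.7 CPM in brain libraries. Cd3e was at 0 in all libraries but 2, with at most 12.9 CPM, and Cd6 had no count. Others had more reads in blood. Bcl11b was at 43.1, 0 and 50.1 CPM in Nor_Bl_mono, 16.3, 20.8 and 0 CPM in NMO_Bl_mono and 0, 0 and 4.25 CPM in NMO_Br_mono. Cd28 was at 27.2, 38.3 and 0 CPM in Nor_Bl_mono, 12.8, 20.8 and 0 CPM in NMO_Bl_mono and 0 in every brain library. B cell markers summed to 0 to 76.7 CPM in blood and 0 to 37.5 CPM in the brain, platelet markers to 184 to 1459 CPM and 0 to 39.4 CPM, and erythroid markers to 893 to 5373 CPM and 1.04 to 400 CPM. Neutrophil markers (59.5 to 203 CPM in blood, 226 to 1464 CPM in the brain) and microglia markers (0 to 70.8 CPM in blood, 129 to 492 CPM in the brain) had higher sums in the brain. The higher neutrophil sum came from S100a8 and S100a9. Retnlg went the other way, at 124, 84.3 and 37.6 CPM in Nor_Bl_mono, 78.4, 16.8 and 0 CPM in NMO_Bl_mono and 0 in every brain library. Cxcr2 was at most 0.56 CPM in any library. The T cell, platelet and erythroid lists thus had lower sums in the brain, as the 10 genes did, and NK receptors had the counts given above. The part of other cells in the values of the 10 genes was not tested.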

How the data were processed

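The monocyte libraries were deposited by the authors as raw counts, 1 file per library. Per the study's methods and processing notes, the authors aligned single-end reads to mm10 with Bowtie2 and took the count of each gene with bedtools from alignments both unique and multiple. Tool versions and annotation are not given in the sources used here. The TMM and CPM scaling that the authors describe is not part of the deposited counts. Counting of multiple alignments can move reads between near-identical genes.

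From these counts, R 4.3.3 was used. Each file lists 23282 entries with 23238 symbols, and 35 symbols that appear repeatedly were represented by their most abundant entry. Of these, 8796 had no count in any library, and 10107 genes passed filterByExpr. All 9 libraries were fitted together with glmQLFit and glmQLFTest of edgeR 4.0.16 with TMM factors and Benjamini-Hochberg adjustment over all genes tested, and called at an adjusted p under 0.05. The scripts were tested on simulated data. No batch is given in the labels. Libraries of a group are pools of different mice only as far as the labels say, so p-values measure the spread between these pools. Within a group, no 2 libraries were identical. Intervals and the floor of 3 counts cover counting error only.

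The 10 genes and the other lists were chosen with earlier results of these data known. Named genes were all 10, the genes of the fixed lists, and the 10 genes closest in pattern by Pearson's r on log2(CPM + 1) with the mean of the 10. Alternatives were other scaling factors, other filters, only the groups compared, a replicate block, each library left out, DESeq2 1.42.0 and summed entries of a symbol. Gene positions and promoters were taken from RefSeq tables of GRCm38.p6. A few symbols of the lists, such as Ly6g and Trac, were not analysed here. Values of the list genes are printed for selected examples, and some results are not reported here.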

Additional observations from a re-analysis of the deposited data

How the results depend on the processing

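No member was called in NMO_Bl_mono against Nor_Bl_mono under any of 20 alternatives. With only the groups compared in the fit, 0 members were called lower against NMO_Bl_mono and 1 against Nor_Bl_mono, where 6 were called with all 9 libraries; that fit has fewer samples. These counts restate how the genes were chosen. Leaving out each library in turn gave 4 to 7 members called lower against NMO_Bl_mono, 2 to 7 against Nor_Bl_mono (2 without Nor_Bl_mono replicate 3), and 2 to 4 members with no overlap between the blood groups. A lack of overlap is easier to reach with fewer libraries. The share of all genes called was not computed with only the groups compared, with a library left out or with a replicate block. With library sizes alone the summed level of NMO_Bl_mono was 129.7% of Nor_Bl_mono, where it was 108.8% with TMM factors. NMO_Bl_mono replicate 3 had the largest TMM factor, 1.46. The 10 genes were 0.733% of its counts, and 0.351 to 0.456% of the counts in the other blood libraries. The cause was not tested.

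A replicate block gave 0, 6 and 6 members called in the comparisons, the same numbers as without it, and turned Prf1 in NMO_Br_mono against NMO_Bl_mono to a log2 fold change of 0.38. Deviations of libraries with the same replicate number had r from -0.01 to 0.12, with 1 of 9 pairs over 0.1. Those with different numbers had r from -0.096 to 0.03, with 0 of 18 pairs over 0.1. Not every library correlated best with its own number. Whether libraries with the same number share mice or a batch was not settled by these values, and the labels do not say. Without both NMO_Bl_mono replicate 3 and NMO_Br_mono replicate 2, an alternative chosen after seeing the data, Gzma turned to -0.0083 and Prf1 to 0.0885 in the blood comparison. With each library left out in turn, Gzma there ran from -0.0083 to 0.28, Prf1 from -1.37 to 0.24 and Ccl5 from -0.0723 to 0.33, and Prf1 in NMO_Br_mono against NMO_Bl_mono ran from -1.63 to 0.60. These genes were called under no alternative in those comparisons. The depth limits values near 0: 3 counts were 0.271 to 0.429 CPM.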
